A study of Mus musculus with 4 samples.

Results

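Foxp2-selected excitatory nuclei are 120 of the 55295 nuclei kept from 4 single-nucleus RNA-seq libraries of mouse hippocampal tissue. They were chosen by a rule on the counts themselves. A nucleus was a member with at least 3 Foxp2 UMIs (unique molecular identifiers, each standing for 1 captured transcript), at least 1 UMI each of Hs3st4, Tle4 and Slc17a7, at most 1 UMI of Fn1 and at most 1 of Gad1 and Gad2 together. It also had to lack other signatures, with fewer than 2 of 4 dentate granule genes (Prox1, Glis3, Dsp, Trpc6), fewer than 3 of 5 retrohippocampal genes (Rai14, Sntb1, Cwh43, Myocd, Vwc2l) and fewer than 2 of 6 glial genes (Mobp, Mog, Prr5l, Gja1, Fgfr3, Inpp5d) detected. The members were 18 nuclei of WT replicate 1, 35 of WT replicate 2, 20 of KI replicate 1 and 47 of KI replicate 2. The rule was meant to catch deep layer cortical neurons, but only 21 members held Rprm or Syt6, and 8 members of 1 library carried thalamic transcripts, so the nuclei are named here by the rule.

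The libraries came from wild-type (WT) mice and from littermates with 1 knock-in allele of Cyfip2 that changes an arginine of the protein to cysteine (Cyfip2+/R87C, called KI), on the C57BL/6N background, at postnatal week 28 by the heading of the study's supplementary data. Each library was 1 mouse, with 2 mice per genotype, and both hippocampi of a mouse were frozen before nuclei were isolated. All 4 carry the same batch label, so no batch could be separated. The treatment label of KI replicate 2 reads R88C where its protocol names R87C, and its genotype label places it with the KI animals. The sex of the 4 mice was not given in the sources used here, and with 2 mice per group every p-value rests on the spread between 2 animals.

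Layer 6 corticothalamic neurons are excitatory cells of the deep neocortex that send axons to the thalamus. They are known for the transcription factors Foxp2, Tle4, Tbr1, Fezf2 and Sox5, for the heparan sulfate sulfotransferase Hs3st4, and for the layer 6 genes Rprm and Syt6. Foxp2 is also made in other neurons, among them thalamic relay neurons, striatal projection neurons and cells of the amygdala. The hippocampus itself has no cortical layer 6, and neocortex lies directly above it. How much adjoining tissue was taken with the hippocampus of each mouse was not given in the sources used here.

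The rule cut few nuclei from a larger Foxp2-positive pool. At least 3 Foxp2 UMIs were counted in 139 and 170 nuclei of WT replicates 1 and 2 and in 262 and 228 nuclei of KI replicates 1 and 2. Asking for Slc17a7, the vesicular glutamate transporter of cortical and hippocampal excitatory neurons, left 57, 91, 79 and 117 of them in the same order. After the Gad1 and Gad2 step, which leaves out inhibitory neurons, and the Hs3st4, Tle4, Fn1 and dentate steps, 27, 57, 22 and 59 remained. The retrohippocampal step then took the WT libraries to 18 and 35 and the KI libraries to 20 and 51. The plot of nuclei left after each step shows that this step removed a larger part of the WT than of the KI nuclei.

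**Figure D1:**
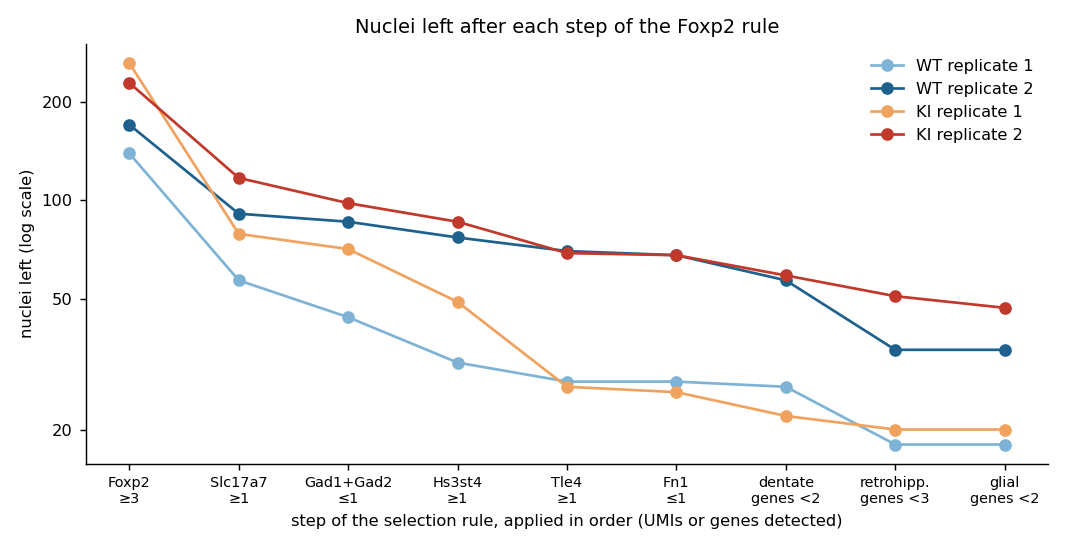
Nuclei left (vertical axis, log scale) after each step of the selection rule, applied from left to right, with 1 line per library. KI replicate 1 starts highest with 262 nuclei and ends at 20, and both WT lines fall at the retrohippocampal step, from 27 to 18 and from 57 to 35.

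The genes that chose the members are given as values only, with no test result. Foxp2, a forkhead transcription factor, was at 570 and 602 CPM (UMIs of a gene scaled to a member total of 1e+06 UMIs per library) in WT replicates 1 and 2 and at 492 and 547 CPM in KI replicates 1 and 2. Hs3st4 was at 2520 and 2496 CPM in the WT libraries and at 1412 and 2442 CPM in the KI libraries, so KI replicate 1 was the lowest. Tle4, a transcriptional corepressor, was at 499, 551, 321 and 359 CPM in the same order. At the Foxp2 threshold, 7, 12, 10 and 20 members had exactly 3 UMIs, and 12, 26, 17 and 41 nuclei that met the rest of the rule had exactly 2 and stayed outside. Most members sat close to this limit, with a median of 3.5 to 4 Foxp2 UMIs per nucleus in every library.

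The given marker Rprm, which encodes a p53-induced cell cycle regulator and was not used by the rule, was found in 12 of the 120 members. Its summed level was 23.4 and 7.16 CPM in WT replicates 1 and 2 and 4.28 and 22.9 CPM in KI replicates 1 and 2. In all other excitatory nuclei (Slc17a7 at least 1 UMI, Gad1 and Gad2 at most 1) of the same libraries it was at 3.99 CPM in WT replicate 1 and at up to 12.7 CPM, in KI replicate 1. Rprm thus stood above the other excitatory nuclei in 3 libraries and below them in KI replicate 1. These levels rest on few UMIs, 3 and 2 in the members of WT replicates 1 and 2 and 1 and 9 in KI replicates 1 and 2. A UMI of Rprm was seen in 16.7%, 5.71%, 5% and 12.8% of the members, against 1.86%, 1.94%, 6.06% and 5.01% of glial nuclei, in which the gene should be silent. Here glial nuclei are those with at least 2 of the 6 glial genes and no Slc17a7, Gad1 or Gad2 UMI. Their median depth was 1686 to 2083 UMIs, against 5914 to 10423 in the members, and the share in KI replicate 1 was no higher than in glia.

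The layer 6 corticothalamic list as a whole (Rprm, Syt6, Nxph3, Crym, Sla, Tbr1, Fezf2 and Sox5) was commoner in the members. At least 2 of its 8 genes were detected in 77.8%, 74.3%, 45% and 72.3% of the members of WT replicates 1 and 2 and KI replicates 1 and 2, against 24.2%, 30.5%, 32.3% and 33.1% of the other excitatory nuclei, which were shallower (median 5034 to 6449 UMIs). Syt6, a synaptotagmin of corticothalamic neurons, was detected in 11 members, at 15.6, 3.58, 4.28 and 30.6 CPM against 1.52 to 2.83 CPM in the other excitatory nuclei. Rprm and Syt6 were found together in 2 members. Tbr1, a T-box factor of deep layers, was at 15.6, 32.2, 38.5 and 43.3 CPM in WT replicates 1 and 2 and KI replicates 1 and 2, against 6.28, 7.15, 6.67 and 7.69 CPM in the other excitatory nuclei. It was higher in the members of every library, but in few nuclei. Sox5 was detected in 85% to 94.4% of the members of a library, at 509 to 863 CPM, against 279 to 412 CPM in the other excitatory nuclei. Crym, a thyroid hormone binding protein, was at 59.9 to 99.3 CPM in the members and at 64.8 to 92.7 CPM in the other excitatory nuclei, so it did not set them apart. The plot of marker levels shows the same for each library. The 4 layer 6b genes (Ccn2, Cplx3, Nxph4, Moxd1) summed to 7.80, 32.2, 4.28 and 15.3 CPM in the members, against 6.26, 9.86, 5.77 and 7.91 CPM in the other excitatory nuclei, so they stood higher in the members of 3 libraries. In WT replicate 1 the sum was 1 UMI, of Cplx3, and in KI replicate 1 it was 1 UMI, of Ccn2.

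**Figure D2:**
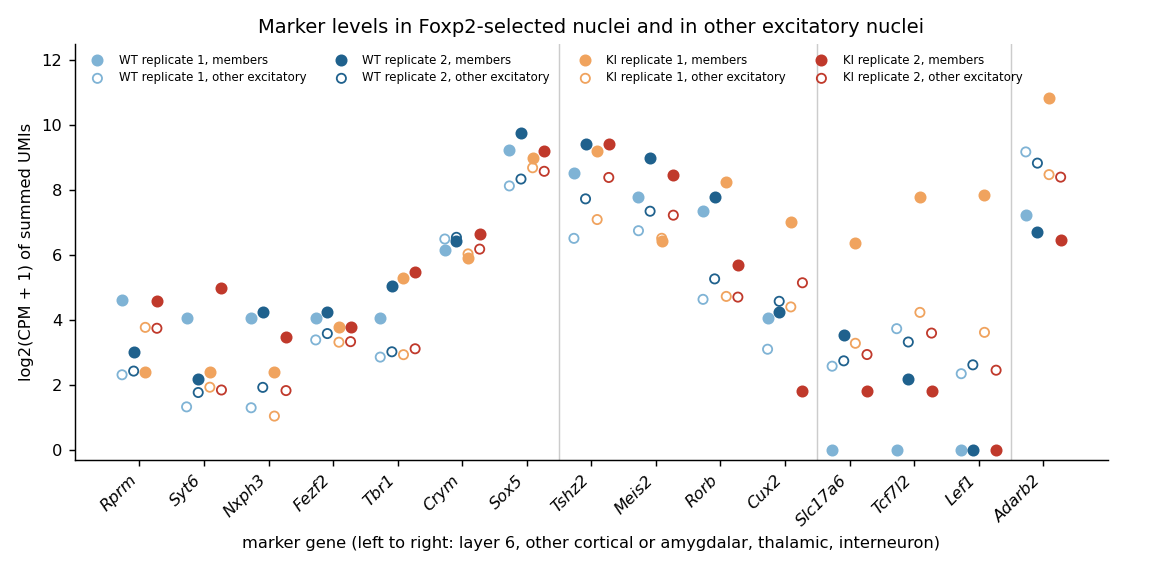
Summed level of 15 marker genes on the log2(CPM + 1) scale (vertical axis) in the members (filled) and in the other excitatory nuclei (open) of each library. The thalamic genes Slc17a6, Tcf7l2 and Lef1 and the interneuron gene Adarb2 stand high in the members of KI replicate 1 alone.

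In KI replicate 1, 8 of the 20 members carried thalamic transcripts. The thalamus list held Slc17a6, the glutamate transporter of subcortical neurons, the transcription factors Tcf7l2 and Lef1, which are made in thalamic relay neurons, and Gbx2. Each of these 8 nuclei held Slc17a6 (1 to 6 UMIs), Tcf7l2 (2 to 25 UMIs) and Lef1 (2 to 19 UMIs). Gbx2 was at 0 in all of them. Not 1 member of the other 3 libraries had 2 or more thalamus genes. Summed over the list, the members were at 0 and 14.3 CPM in WT replicates 1 and 2, 530 CPM in KI replicate 1 and 5.09 CPM in KI replicate 2. The 8 nuclei were deep, with a median of 12887 UMIs against 9130 in the other 12 members, and held 49.0% of the member UMIs of their library. Their highest doublet score, a measure of likeness to simulated pairs of nuclei, was 0.217.

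These 8 nuclei differed from the other 12 of the same library in many genes. Adarb2, an RNA-editing family gene on the interneuron list, was at 3526 CPM in them and at 185 CPM in the rest, and it made up nearly all of that list's 1839 CPM in KI replicate 1. Hs3st4 was at 306 against 2475 CPM, and Tle4 at 113 against 520 CPM. Neither Rprm nor Syt6 nor Meis2 had a UMI in any of the 8. The genes Synpo2, Prkcd and Plekhg1, chosen after their values were seen, were at 1702, 463 and 1414 CPM in the 8 nuclei and at 25.2, 0 and 0 CPM in the other 12. Because they weigh on the sums of KI replicate 1, genotype results are also given without them for many of the genes and lists. Among the other excitatory nuclei, 0.384%, 0.309%, 1.68% and 0.683% had 2 or more thalamus genes in WT replicates 1 and 2 and KI replicates 1 and 2.

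The members were mixed in other markers too. Exactly 2 of the 5 retrohippocampal genes were held by 12 of 18 and 18 of 35 members of WT replicates 1 and 2. In KI replicates 1 and 2 it was 6 of 20 and 13 of 47 members. Meis2, a homeodomain factor of amygdalar, striatal and other neurons, reached 3 or more UMIs in 2, 13, 3 and 17 members of WT replicates 1 and 2 and KI replicates 1 and 2. Tshz2, a zinc finger factor known from near-projecting neurons of the deep cortical layers, reached 3 or more in 2, 13, 10 and 16 members, and 15 nuclei in all held both at that level. Rorb, a nuclear receptor of layer 4 and of thalamic neurons, reached it in 4, 11, 6 and 4 members. Of the 120 members, 43 had no UMI of Rprm or Syt6, fewer than 2 thalamus genes, and fewer than 3 UMIs of Meis2 and of Tshz2. Of the 8 nuclei with thalamus genes, 7 held Tshz2 at 3 or more UMIs and 0 held Meis2 at that level, as the plot of marker UMIs in each nucleus shows. No cell type name was given to these groups of nuclei.

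**Figure D3:**
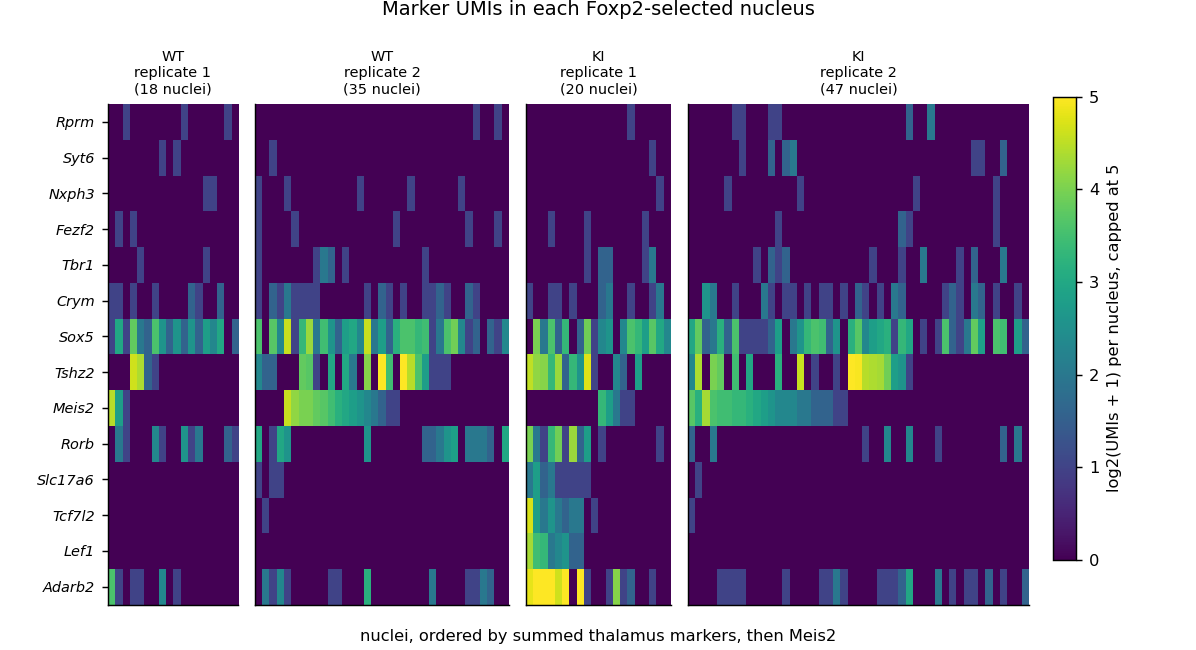
UMIs of 14 marker genes (rows) in each of the 120 members (columns), on the log2(UMIs + 1) scale, capped at 5, in 1 panel per library, with nuclei ordered by their summed thalamus markers and then Meis2. The first 8 columns of KI replicate 1 hold Slc17a6, Tcf7l2 and Lef1, 7 of these 8 also hold Adarb2, and Rprm and Syt6 appear as scattered single nuclei.

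Away from the rule's genes, the top 15 were taken by their smallest ratio of summed members to other excitatory nuclei over the 4 libraries. Each had at least 50 CPM in the members of every library. The ranking is a description, since the same counts chose the nuclei. Cdh18, a cadherin, was at 1670 and 2446 CPM in the WT members and at 1433 and 1538 CPM in the KI members, against 89.2 to 264 CPM in the other excitatory nuclei. Dpp10, an auxiliary subunit of Kv4 potassium channels, was at 13437, 13196, 6305 and 8916 CPM in the members of WT replicates 1 and 2 and KI replicates 1 and 2, against 473 to 1890 CPM in the rest. Cntnap4, a neurexin-family protein, Grik3, a kainate receptor subunit, Sulf1, an extracellular sulfatase, and the sulfotransferases Hs3st2 and Hs3st5 were also among the 15, as were Gm45904, Dlc1, Garnl3, Serpini1, Sdk2, Pcsk5, Igsf21 and Etl4. Zbtb20, a zinc finger factor of hippocampal neurons, was lower, at 827, 251, 394 and 415 CPM against 1905 to 2882 CPM. Vascular and microglial markers stayed low in every library: the endothelial and mural list summed to 0 to 15.6 CPM and the microglia list to 59.9 to 101 CPM. The oligodendrocyte list was at 158 to 250 CPM, below the 500 to 718 CPM of the other excitatory nuclei. Of the astrocyte list, Slc1a2, a glutamate transporter also found in some neurons, was at 318 to 741 CPM against 224 to 306 CPM, while Slc1a3, the other glial glutamate transporter, was at 0 to 28.6 CPM against 36.9 to 51.0 CPM.

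The first question of the design was whether the members made up a different share of nuclei in the KI mice. They were 0.113% (exact binomial 95% interval 0.0668% to 0.178%) and 0.266% (0.185% to 0.370%) of the kept nuclei in WT replicates 1 and 2. They were 0.159% (0.0973% to 0.246%) and 0.346% (0.254% to 0.459%) in KI replicates 1 and 2. The genotypes overlapped, and the means of 0.189% ± 0.108 for WT and 0.252% ± 0.132 for KI (SD, n = 2 each) were not told apart by an exact two-sided permutation test (p = 0.667, where 2 against 2 libraries cannot go below 0.333). The intervals cover counting error only. Within a genotype the replicates differed by more than their counting intervals, so the spread between mice was larger than the difference between genotypes. The difference of 0.0632 percentage points turned to -0.0110 without the retrohippocampal step, -0.0134 without WT replicate 1 and -0.0300 without KI replicate 2. It was 0.0313 without the 8 nuclei with thalamus genes. With the nuclei of at least 2000 UMIs thinned to 2000, and the rest left out, it was 0.00795. That value rests on 1 and 3 members in WT replicates 1 and 2 and 0 and 6 in KI replicates 1 and 2.

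The second question was which genes differed between KI and WT members. Counts were summed over the members of each library, 128152 and 279250 UMIs in WT and 233771 and 392786 UMIs in KI, and compared by edgeR's quasi-likelihood test. Of 4542 genes tested, 1 passed a Benjamini-Hochberg adjusted p below 0.05, or 0.022% of them, and 319 (7.02%) had an unadjusted p below 0.05. In counts simulated at this size the same test recovered 74.7% of genes changed 4-fold and 6.06% of those changed 2-fold, with 5 calls of unchanged genes, so changes of 2-fold were mostly not detectable at this depth. The replicates themselves were uneven: over genes, the KI pair differed 4.41 times as much as counting error alone gives (chi-square per degree of freedom), and the WT pair 1.66 times. The simulated libraries of both genotypes shared the same spread for a gene. They lacked this unevenness, so the simulated recovery need not hold for the real counts.

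Cyfip2 carries the knock-in allele. It encodes a subunit of the WAVE regulatory complex, which drives branching of actin filaments, and it lies on chromosome 11 (GRCm38, 46193850 to 46312859, minus strand). Cyfip2 was at 148 and 175 CPM in WT replicates 1 and 2 and at 248 and 140 CPM in KI replicates 1 and 2, so the genotypes overlapped. Its log2 fold change was 0.32 ± 0.37 (SE; edgeR adjusted p = 0.899). The counts do not tell the 2 alleles apart, so they check neither the labels nor the substitution. Of the 9 WAVE complex genes 8 were tested and 0 had an unadjusted p below 0.05, with a median log2 fold change of 0.16 beside 0.01 over all genes tested. Without the 8 nuclei Cyfip2 was at 0.39 and the list's median, over 7 genes, at 0.36.

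Sorcs1 was the gene that passed. It encodes a sorting receptor of the VPS10 family, which directs neuronal membrane proteins through endosomes, and lies on chromosome 19 (GRCm38, 50143299 to 50678646, minus strand). In the members it was at 31.2 and 25.1 CPM in WT replicates 1 and 2 (4 and 7 UMIs) and at 351 and 316 CPM in KI replicates 1 and 2 (82 and 124 UMIs). Both KI libraries stood far above both WT libraries, with a log2 fold change of 3.68 ± 0.38 (SE; edgeR adjusted p = 0.0316). A UMI was found in 4 of 18 and 5 of 35 WT members and in 17 of 20 and 34 of 47 KI members. In KI replicate 1 both kinds of members held it, at 419 CPM in the 8 nuclei with thalamus genes and 285 CPM in the other 12, and without those 8 the fold change was 3.54 (adjusted p = 0.00192).

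Sorcs1 was also higher in KI outside the members. In the other excitatory nuclei Sorcs1 was at 95.9 CPM in each WT library and at 279 and 324 CPM in KI replicates 1 and 2. In glial nuclei, which held more of it, it was at 480 and 471 CPM in WT against 768 and 601 CPM in KI, and the part of free or glial RNA in the members' counts was not tested. The call was lost in other settings: leaving out WT replicate 1 or 2 ended it (adjusted p = 0.885 and 0.935), as did leaving out members with a doublet score above 0.25 (0.0538), asking for 5 Foxp2 UMIs (0.421) or thinning all sums to the shallowest library (0.114). The fold change stayed at 3.41 or above in every setting tried.

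The genes next in rank did not pass the threshold with edgeR and are given as values, by the rule of smallest unadjusted p without overlap between genotypes. On the higher side stood Kctd16, an auxiliary subunit of GABA-B receptors, at 258 and 244 CPM in WT replicates 1 and 2 and 697 and 924 CPM in KI replicates 1 and 2 (log2 fold change 1.79 ± 0.29; edgeR adjusted p = 0.362). Cntnap5a, a neurexin-family adhesion protein, was at 62.4 and 100 CPM in WT against 432 and 295 CPM in KI, with a log2 fold change of 2.19 ± 0.38. Cntn3, a contactin of the immunoglobulin superfamily, was at 101 and 140 CPM in WT against 334 and 578 CPM in KI. Sorcs3, a relative of Sorcs1, was at 117 and 168 CPM in WT against 342 and 395 CPM in KI. In these 4 genes both KI libraries stood above both WT libraries, by 1.43 to 2.19 on the log2 scale. Without the 8 nuclei KI replicate 1 was at 470 CPM for Kctd16, 294 CPM for Cntnap5a and 260 CPM for Cntn3, and with Foxp2 at 2 UMIs Cntnap5a was at 1.49 on the log2 scale. Levels without overlap were common, with both KI libraries above both WT libraries in 672 of the 4542 genes (14.8%) and below them in 1096 (24.1%).

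For other genes of that side, the level in KI replicate 1 came mainly from the 8 nuclei with thalamus genes. Inpp4b, a phosphoinositide phosphatase, was at 85.8 and 115 CPM in WT against 1647 and 372 CPM in KI replicates 1 and 2, but at 252 CPM in KI replicate 1 without the 8 nuclei. Fstl4, a follistatin-like secreted protein, was at 23.4 and 43.0 CPM in WT against 449 and 122 CPM in KI, with 58.7 CPM in KI replicate 1 once those nuclei were left out. With DESeq2 on all genes with a count, Inpp4b passed (adjusted p = 0.000378). The log2 fold change went from 3.39 to 1.71 for Inpp4b and from 3.06 to 1.55 for Fstl4. Pkp2, a desmosomal plaque protein, went from 2.15 to 1.60 (1.08 with Foxp2 at 2 UMIs) and Sorcs3 from 1.43 to 1.11. Sorcs3 in KI replicate 1 was then at 168 CPM, level with WT replicate 2.

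On the lower side, Adamtsl1, a secreted matrix protein related to ADAMTS proteases, was at 819 and 684 CPM in WT replicates 1 and 2 and 175 and 242 CPM in KI replicates 1 and 2 (log2 fold change -1.74 ± 0.30; edgeR adjusted p = 0.362). Nckap5, which encodes a microtubule-associated protein, was at 125 and 154 CPM in WT against 17.1 and 33.1 CPM in KI. Galntl6, a glycosyltransferase family gene, was at 2708 and 1787 CPM in WT against 522 and 825 CPM in KI. All 3 kept both KI libraries below both WT libraries without the 8 nuclei, at -1.51, -2.11 and -1.32 on the log2 scale. Sema3d, a secreted semaphorin that guides axons, was at 46.8 and 78.8 CPM in WT (6 and 22 UMIs, in 2 and 6 nuclei) and at 4.28 and 5.09 CPM in KI (1 and 2 UMIs). Nrp2, a semaphorin receptor, was at 179 and 236 CPM in WT against 64.2 and 71.3 CPM in KI, and at 117 CPM in KI replicate 1 without the 8 nuclei. St3gal1, a sialyltransferase, and the long noncoding RNA Gm48749 were at -2.24 and -1.71 on the log2 scale, and Hspa5, also on the lower side, is given with the heat shock list. For Sema3d the value was -1.71 without the retrohippocampal step.

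**Figure D4:**
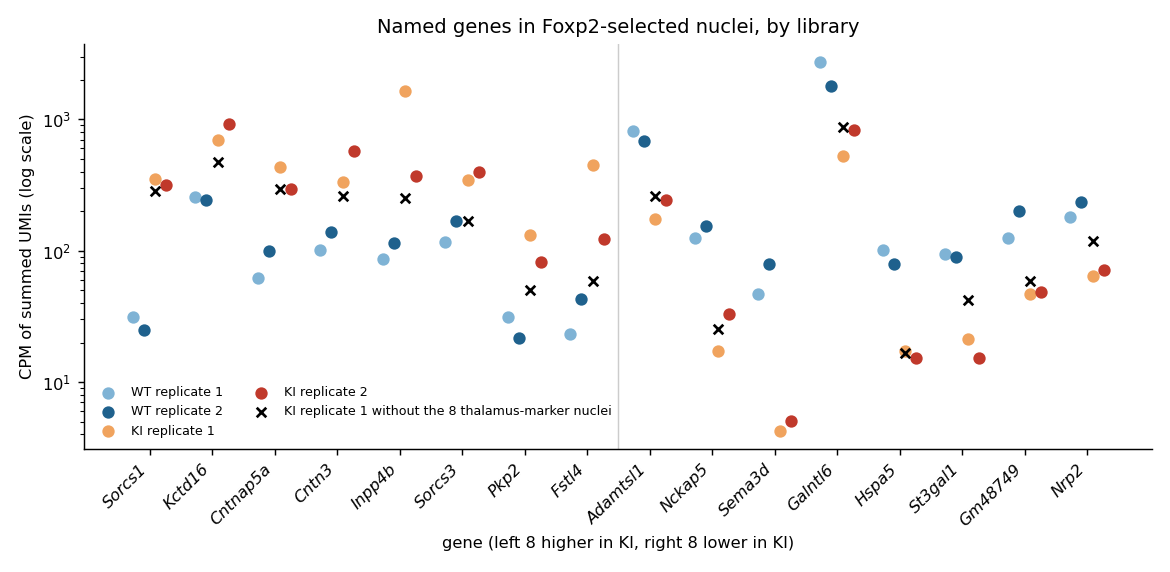
CPM of summed member UMIs (vertical axis, log scale) for the 16 named genes in each library, with a cross for KI replicate 1 without its 8 nuclei with thalamus genes (Sema3d then had 0 UMIs and has no cross). Sorcs1 stands at 25.1 to 31.2 CPM in WT and 316 to 351 CPM in KI, and the crosses of Inpp4b and Fstl4 fall far below their filled points.

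The gene lists are described by counts beside the background of all genes tested, where an unadjusted p below 0.05 was reached by 3.68% on the higher side and 3.35% on the lower side (7.83% in either direction without the 8 nuclei). Sorcs1 is on none of them, and no gene of any list passed the adjusted threshold with all members. Of the heat shock list's 13 genes, 7 were tested. All 7 had a negative log2 fold change, 4 of the 7 had an unadjusted p below 0.05, and their median was -0.97 (-0.78 over 6 genes without the 8 nuclei). Hspa5, the main chaperone of the endoplasmic reticulum, was at 101 and 78.8 CPM in WT replicates 1 and 2 and 17.1 and 15.3 CPM in KI replicates 1 and 2 (log2 fold change -2.33 ± 0.46; edgeR adjusted p = 0.364), and its log2 fold change was -1.11 with Foxp2 at 2 UMIs and -2.36 without the 8 nuclei. Hsp90aa1, a cytosolic chaperone, was at 242 and 143 CPM in WT against 72.7 and 91.7 CPM in KI (117 CPM in KI replicate 1 without the 8 nuclei). Hspa8, the constitutive Hsc70 chaperone, was at 133 and 154 CPM in WT against 47.1 and 86.6 CPM in KI. Hsp90ab1 and Hsp90b1, however, were near level, at -0.05 each. The summed list was at 1022 and 834 CPM in WT against 441 and 591 CPM in KI.

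In the other excitatory nuclei the same chaperones also stood lower in both KI libraries, Hspa5 at 74.3 and 61.4 CPM in WT against 31.8 and 37.1 CPM in KI, and Hspa8 at 182 and 153 CPM in WT against 57.0 and 98.9 CPM in KI. The cholesterol synthesis list was small in these nuclei, with 4 of 19 genes tested, all 4 negative, and 2 with an unadjusted p below 0.05 (1 of 3 without the 8 nuclei). Srebf2, a transcriptional activator of the pathway, was at 93.6 and 82.4 CPM in WT against 34.2 and 45.8 CPM in KI. The plot of heat shock genes shows the libraries gene by gene.

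**Figure D5:**
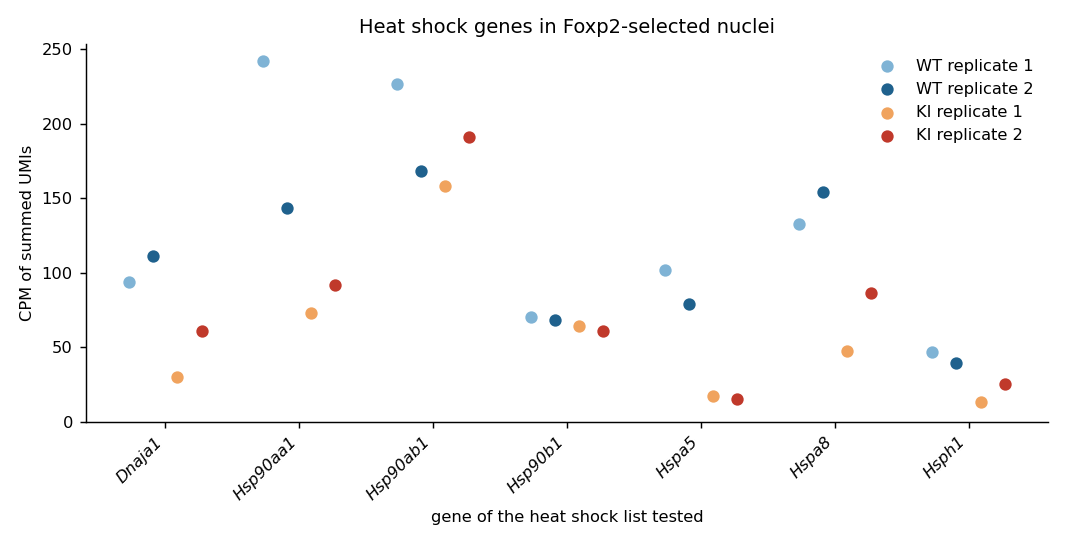
CPM of summed member UMIs (vertical axis, from 0) for the 7 heat shock genes tested, with 1 point per library. Hspa5 stands at 78.8 to 101 CPM in WT and 15.3 to 17.1 CPM in KI, while Hsp90ab1 and Hsp90b1 overlap or nearly so.

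Of the glutamate receptor lists, the AMPA and kainate list had 17 genes tested, 5 lower and 1 higher in KI at an unadjusted p below 0.05, with a median log2 fold change of -0.29 (4 lower and 1 higher of 16 without the 8 nuclei). Grik3, which was also among the 15 leading genes, was at 398 and 455 CPM in WT replicates 1 and 2 and 154 and 239 CPM in KI replicates 1 and 2 (243 CPM in KI replicate 1 without the 8 nuclei). Cnih3, a cornichon-type auxiliary subunit of AMPA receptors, was at 54.6 and 93.1 CPM in WT against 21.4 and 25.5 CPM in KI. Gria4, an AMPA receptor subunit, was the gene on the higher side with all members, at 336 and 430 CPM in WT against 988 and 509 CPM in KI, and at 461 CPM in KI replicate 1 without the 8 nuclei, where its unadjusted p was 0.133. The higher gene in that setting was Gria2, another subunit, named after its values were seen (log2 fold change 0.57). Grin1, the obligatory NMDA receptor subunit, was at 265 and 297 CPM in WT against 432 and 405 CPM in KI. Grm3, a metabotropic receptor, was at 492 and 569 CPM in WT against 145 and 349 CPM in KI, and at 252 CPM in KI replicate 1 without the 8 nuclei.

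The sodium and calcium channel list had 15 genes tested, with 4 higher and 0 lower at an unadjusted p below 0.05 and a median of 0.24, but without the 8 nuclei 1 was higher and the median was 0.17. Cacna1c, a pore subunit of L-type calcium channels, was at 679 and 458 CPM in WT against 1874 and 570 CPM in KI replicates 1 and 2, and at 621 CPM in KI replicate 1 without the 8 nuclei. Of 25 potassium and HCN channel genes tested, 2 were higher and 1 was lower, and without the 8 nuclei 1 was higher and 1 lower of 24. Kcnc2, a fast Kv3 channel, was at 1621 CPM in KI replicate 1, at 176 CPM there without the 8 nuclei, and at 107 to 211 CPM in the other libraries. Kcnq5, an M-current channel, was at 1654 and 741 CPM in WT against 235 and 550 CPM in KI, and at 403 CPM in KI replicate 1 without the 8 nuclei, where its log2 fold change went from -1.50 to -1.21. Of 12 GABA receptor genes tested, 2 were higher, Gabra4 and Gabbr2, and without the 8 nuclei 0 were higher and 1 was lower. In Kcnq5, WT replicate 1 owed 141 of its 212 UMIs to 1 nucleus.

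Of the axon guidance list, 26 genes were tested, with 1 higher and 4 lower at an unadjusted p below 0.05 and a median of -0.06. Without the 8 nuclei 0 were higher and 4 lower, but Sema3d was then too low to be tested and Sema5a, another semaphorin, named after its values were seen, was the fourth beside Nrp2, Nrp1 and Epha3. Besides Sema3d and Nrp2, the lower genes were the semaphorin receptor Nrp1, at 367 and 301 CPM in WT against 111 and 178 CPM in KI (210 CPM in KI replicate 1 without the 8 nuclei), and Epha3, an ephrin receptor, at 234 and 265 CPM in WT against 154 and 107 CPM in KI. The deep layer list had 9 of 18 genes tested, 2 of them lower at an unadjusted p below 0.05 and a median of -0.33, which was -0.05 without the 8 nuclei. Of the postsynaptic list, 21 genes were tested, with 1 higher, 1 lower and a median of -0.01. Dlgap1, a scaffold protein, was at 1405 and 1561 CPM in WT against 2438 and 2251 CPM in KI, and at 1686 CPM in KI replicate 1 without the 8 nuclei. Homer1, another scaffold, was at 187 and 247 CPM in WT against 94.1 and 132 CPM in KI. Of the immediate early list, which responds to neuronal activity, 3 of 25 genes were tested, and beside Homer1, Scg2, a granin of secretory vesicles, was at 31.2 and 10.7 CPM in WT against 55.6 and 45.8 CPM in KI.

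On the remaining lists, an unadjusted p below 0.05 was reached by 2 of 28 splicing factors (Rbfox1 and Srsf10, both higher), 2 of 12 oxidative phosphorylation genes (Ndufv1 lower, Atp5a1 higher) and 0 of 19 synaptic vesicle genes (1 higher and 2 lower of 15 without the 8 nuclei). Of 10 nuclear long noncoding RNAs, 3 were higher and 1 lower. Malat1, an abundant RNA retained in the nucleus, was at 56808 and 55527 CPM in WT against 78992 and 92458 CPM in KI (log2 fold change 0.70 ± 0.19; edgeR adjusted p = 0.588), and without the 8 nuclei it passed, at 0.87 with an adjusted p of 0.00192. In the other excitatory nuclei it made up 8.87% and 8.73% of UMIs in WT and 14.0% and 12.2% in KI. Gm26917 was at 1288 CPM in the members of KI replicate 1 against 140 to 160 CPM in the other 3 libraries, a gap that the other excitatory nuclei also had (1286 against 127 to 134 CPM).

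Of the lipid carriers, 2 of 5 tested were higher at an unadjusted p below 0.05. Apod, a lipocalin made mostly by glia, was at 31.2 and 7.16 CPM in the WT members and 188 and 56.0 CPM in the KI members. Ptgds, another lipocalin, was at 39.0 and 46.6 CPM in WT against 154 and 109 CPM in KI. Both are abundant in the glial nuclei, where Apod was at 403 and 315 CPM in WT against 3019 and 685 CPM in KI, and Ptgds at 781 and 772 CPM in WT against 2008 and 1372 CPM in KI. In every library the members stood below the other excitatory nuclei in the level of both genes, and the part of glial RNA in these counts was not tested.

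To ask whether the genotype difference of the members differed from that of other excitatory neurons, the class-by-genotype term was tested, with the library as a block, against CA1-selected nuclei (excitatory, with Fibcd1 and Mpped1, markers of CA1, and at most 1 Foxp2 UMI, 133 to 350 per library) and Fn1-selected nuclei (excitatory, with at least 3 UMIs of the subicular gene Fn1, 24 to 68 per library). With edgeR, 0 of 9965 genes (0%) passed the adjusted threshold against CA1 and 0 of 5788 (0%) against the Fn1 nuclei, with 4.43% and 4.91% at an unadjusted p below 0.05 (5.18% and 5.19% without the 8 nuclei). For Sorcs1 the log2 fold change was 3.68 in the members, 1.63 ± 0.16 in CA1-selected nuclei (adjusted p = 0.000139) and 1.01 ± 0.22 in Fn1-selected nuclei (adjusted p = 0.162), and the difference of 2.05 ± 0.43 from CA1 did not pass (edgeR adjusted p = 0.636). Hspa5 was at -1.14 ± 0.21 in CA1-selected nuclei (adjusted p = 0.0111), and its difference of -1.24 ± 0.52 did not pass. Malat1 was at 0.70 in CA1-selected and 0.66 in Fn1-selected nuclei, beside 0.70 in the members. Inpp4b (1.92 ± 0.17), Nckap5 (-1.16 ± 0.17), Gm48749 (-1.64 ± 0.21), Homer1 (-0.74 ± 0.15) and Grin1 (0.67 ± 0.15) also passed between KI and WT in CA1-selected nuclei. Each had the sign it had in the members, while Cntnap5a and Adamtsl1 had the opposite sign there and did not pass. The 3 classes come from the same 4 mice.

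Cntnap5a, Adamtsl1 and Cntn3 had log2 fold changes of 2.19, -1.74 and 1.98 in the members and of -0.38, 0.14 and 0.34 in CA1-selected nuclei. With all members these differences from CA1 did not pass (edgeR adjusted p = 0.279, 0.279 and 0.636). Without the 8 nuclei with thalamus genes, a setting chosen after seeing the data, 13 of 9961 genes (0.131%) passed, these 3 among them, with differences of 2.26 for Cntnap5a (adjusted p = 5.78e-05), -1.70 for Adamtsl1 (0.000653) and 1.47 for Cntn3 (0.035). Against the Fn1-selected nuclei 0 genes passed in that setting. The members also differed between libraries in Rorb and in retrohippocampal genes, as given above. What part this mix of nuclei had in the differences from CA1 was not tested. In CA1-selected nuclei alone, 304 of 11321 genes (2.69%) passed between KI and WT (5 of 5571, or 0.0898%, in Fn1-selected nuclei), from 1340004 to 3077864 UMIs per library, so the 2 classes were tested at very different depth.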

How the data were processed

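Nuclei of 4 hippocampal samples were profiled with a droplet 3' kit. The authors deposited raw UMI counts per gene and called barcode, made with Cell Ranger 7.0.1 per the file headers and aligned to mm10 per the submitters' processing notes. Which gene models were counted, and whether introns were included, is not given in the sources used here. Libraries held 73009975 to 80913580 UMIs in 12665 to 16055 barcodes. The rule was applied after 345 barcodes had been dropped for having fewer than 500 genes or 5% or more mitochondrial UMIs. Libraries shared 39 to 66 barcodes per pair and no member. Gene positions were looked up by gene ID in GENCODE M21 (GRCm38).

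Member counts were summed per library and the genotypes were tested with edgeR 4.0.16 under R 4.3.3 (filterByExpr, TMM factors, quasi-likelihood test, Benjamini-Hochberg adjustment over all genes tested, threshold 0.05), checked on simulated counts. The study tested single nuclei as replicates, which was not done here. CPM are counts over the summed member UMIs. DESeq2 1.42.0, other scalings and filters, and other selection limits were tried, and doublets were scored with Scrublet in scanpy 1.11.5 (expected rate 0.08) and not removed. Shares were compared by exact permutation.

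The members, gene lists and tests were chosen with earlier results of these data known. Named were, per direction, up to 12 genes past the threshold with a mean of at least 10 CPM and no overlap between genotypes, filled to 8 by the smallest unadjusted p, then up to 4 genes per list with an unadjusted p below 0.05, and Cyfip2. Genes of the rule that passed the low-count filter were among the 4542 genes tested, of which 4535 lie outside the rule. No test result is given for a gene of the rule. The replicate numbers did not pair the samples. Some genes of the lists are not reported here.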

Additional observations from a re-analysis of the deposited data

How the results depend on the processing

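The count of 1 gene between KI and WT remained 1 gene, Sorcs1, with RLE size factors, library totals, Foxp2 at 2 UMIs, equal numbers of nuclei and without the retrohippocampal step (chosen after seeing the data, as was leaving out the 8 nuclei with thalamus genes). It was 2 with DESeq2 (which tested all 17338 genes with a count, so the filter differed too) and 2 without the 8 nuclei, 88 without a filter on low counts (71 higher), and 0 without doublet scores above 0.25 (266 genes at an unadjusted p below 0.05), with Foxp2 at 5 UMIs (66) and with sums thinned to equal depth (193). Leaving out 1 library each gave 0 to 323 genes: 0 without WT replicate 1 or 2, 49 without KI replicate 1 and 323 without KI replicate 2, where the lone library is assumed to vary like the other pair. With the replicate number as a block the count was 1. Same-numbered libraries did not deviate together (correlation 0.0337 over 4542 genes), so the numbers were not read as pairs. With 2 libraries per group the other pairing is bound to give the same value with the opposite sign. Without the low-count filter, 62 genes passed in the difference from CA1-selected nuclei and 34 in that from Fn1-selected nuclei, and without the 8 nuclei 13 passed against CA1. The share of members, 0.0632 percentage points higher in KI, was -0.0110 without the retrohippocampal step, -0.0134 without WT replicate 1 and -0.0300 without KI replicate 2, so over the 4 libraries left out in turn it ran from -0.0300 to 0.156. The log2 fold change of Cyfip2 ran from -0.14 without KI replicate 1 to 0.69 without KI replicate 2. Of 868 refits of 53 named genes, 784 kept side and call (among them those with a limit of 1000 genes per nucleus, which removed no member and so could change nothing), 78 gained a call, 5 lost one and 1 turned. Sorcs1 alone of the 53 was called in the main fit, so all 5 lost calls were its own. For the other genes, keeping the call meant staying uncalled. A gene that a setting filtered out was not refitted there. The causes of the shifts between settings were not tested. In counts simulated at this depth, 6.06% of genes changed 2-fold were recovered.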
